A study of Mus musculus with 6 samples.

Results

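The HOX genes encode homeodomain transcription factors, and in the mouse they lie in 4 clusters named A to D. Every row of the count table was taken whose gene name, after splitting at commas, was Hoxa, Hoxb, Hoxc or Hoxd followed by a number. This gave 35 loci of 51499, which carry the names of 39 HOX genes. Of these loci, 4 join several names, namely *Hoxa2* with *Hoxa3* and *Gm28308*, *Hoxc10* with *Hoxc5*, *Hoxd10* with *Hoxd11*, and *Hoxd3* with *Hoxd4* and *Gm28230*. A joined locus was assigned to its cluster and to the highest number among its names.

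RNA was sequenced from WT mouse embryonic fibroblasts (MEFs) 72 h after transfection with scrambled siRNA (Scr) or with siRNA against *Yme1l*, with 3 independent cultures per group. In both groups the MEFs carry the *Yme1l* loxP/loxP alleles, and the methods describe immortalization with SV40 large T antigen, exposure to Cre and expansion of individual clones that were genotyped as WT, whereas the labels name 3T3 immortalization. Either description makes these cells an established line, and p-values measure the spread between cultures of that line. The age of the embryos and the part of the body that gave the cells are not given in the sources used here.

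HOX genes are numbered along each cluster, from 1 at the 3′ end to 13 at the 5′ end, and genes with the same number in different clusters are paralogs. In the embryo, low numbers are used from the hindbrain backwards, whereas high numbers are used in the lower trunk, the limbs and the genital region. Cultured fibroblasts keep a HOX pattern that reflects the site from which they came, and Polycomb and trithorax proteins are the classical keepers of this pattern.

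The 6 libraries held between 37260605 and 45205207 counts. *Yme1l1*, which encodes the protease targeted by the siRNA, had levels of 170, 171 and 171 CPM (counts relative to the TMM-scaled library size) in the Scr cultures. In the Yme1l siRNA cultures it had 31.6, 23.4 and 45 CPM, so the groups did not overlap and 19.5% of the level remained (log2 fold change -2.36, SE (standard error) 0.20; edgeR adjusted p = 3.87e-05). Fibroblast genes were abundant, and their summed level was between 35500 and 42900 CPM in Scr and between 19600 and 24400 CPM in Yme1l siRNA cultures. Of 12 tested fibroblast markers, 9 fell (75.0%) and 2 rose (16.7%), against 29.6% and 28.4% of all tested loci. *Thy1* had at most 1 count per library and *Lum* at most 15. The epithelial list summed to at most 0.222 CPM in Scr and 1.33 CPM in Yme1l siRNA cultures, with *Krt5* at 0 counts. Among blood markers *Ptprc* had at most 3 counts, whereas *Csf1r* was at 123 ± 12.8 CPM in Scr and 205 ± 20.3 CPM in Yme1l siRNA cultures (SD, n = 3 each). The part of these shifts in the HOX values was not tested. In RNA of whole cultures, fewer cells that use a gene and less RNA of it per cell cannot be told apart.

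HOX paralogs have similar homeoboxes, the stretch of 180 bases that encodes the homeodomain, so it matters whether reads can tell them apart. A pair of group 6 is shown because its members were called in opposite directions. In the GRCm38 (mm10) genome they lie at chr15:103010754-103010933 (*Hoxc6*) and chr11:96300689-96300868 (*Hoxb6*), both on the plus strand. Each stretch is coding sequence within 1 exon of the GENCODE M21 annotation, read 5′ to 3′ on the coding strand. Capitals mark the bases of *Hoxb6* that differ from *Hoxc6*.
Hoxc6: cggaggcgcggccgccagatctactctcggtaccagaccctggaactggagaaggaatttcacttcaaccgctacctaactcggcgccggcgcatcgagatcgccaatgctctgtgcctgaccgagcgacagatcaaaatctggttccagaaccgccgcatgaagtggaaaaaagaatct
Hoxb6: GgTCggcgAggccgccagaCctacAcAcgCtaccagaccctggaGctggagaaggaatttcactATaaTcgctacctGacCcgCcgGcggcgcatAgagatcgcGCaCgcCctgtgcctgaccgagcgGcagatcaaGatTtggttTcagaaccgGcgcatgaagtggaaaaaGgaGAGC
*Hoxb6* differs from *Hoxc6* at 31 of 180 bases (82.8% identity). Across 42 pairs of the same number the median identity of the homeoboxes was 80.6%, and it was 60.6% across the 699 other pairs. No stretch of 100 bases, the length of a read, was shared between 87 annotated transcripts of different HOX loci. The longest shared run had 52 bases, between *Hoxb4* and *Hoxa6*.

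In Scr cultures the middle of clusters A, B and C was on, and no locus of groups 11 to 13, at the 5′ ends, reached the limit for being on. A locus was counted as on when it had at least 1 CPM per kb of merged exons in each of the 3 Scr libraries, a scale on which genes of different length can be compared. By this limit 19 of 35 loci were on, 9 were low, and 7 had at most 3 counts in every Scr library. The loci on were 5 of 10 in cluster A, 7 of 10 in cluster B, 5 of 8 in cluster C and 2 of 7 in cluster D. By number, 2 of 6 loci of groups 1 to 3, 11 of 14 of groups 4 to 8, all 6 of groups 9 and 10 and 0 of 9 of groups 11 to 13 were on. These counts place joined loci by their highest number. The locus of *Hoxd10* and *Hoxd11*, with 5, 3 and 4 counts in the Scr libraries, thus stands in groups 11 to 13. That of *Hoxc10* and *Hoxc5*, whose genes cannot be told apart, stands in groups 9 and 10. The FPKM that the authors deposited for the pooled Scr group was at least 1 for 22 loci, which adds *Hoxa2* with *Hoxa3*, *Hoxb5* and *Hoxd3* with *Hoxd4*.

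The highest level was that of *Hoxc6*, which patterns the thoracic region, with 54.8, 56.1 and 66.1 CPM per kb in the Scr libraries. *Hoxc8*, its neighbour in the cluster, had 33.9, 32.0 and 29.9 CPM per kb. *Hoxa7* had 22.1, 21.4 and 22.0 CPM per kb, and *Hoxb9* had 19.8, 19.7 and 19.5. The ranges of these 4 genes did not overlap, so the order *Hoxc6*, *Hoxc8*, *Hoxa7*, *Hoxb9* held in every Scr library. Together they made up 68.0% ± 0.814 (SD, n = 3) of the summed HOX level. *Hoxb7* followed at 10.3 ± 1.38 CPM per kb and *Hoxa5* at 8.20 ± 0.749 (SD, n = 3 each), and the other 13 loci that were on lay between 1.45 and 5.43. At the lower end of these were *Hoxa9* at 1.45 ± 0.0301 and *Hoxb3* at 1.62 ± 0.112 CPM per kb. The place of *Hoxa9* depends on its merged exon length of 5.58 kb. By the authors' pooled Scr FPKM *Hoxa9* was at 5.05 and *Hoxb3* at 2.41.

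**Figure D1:**
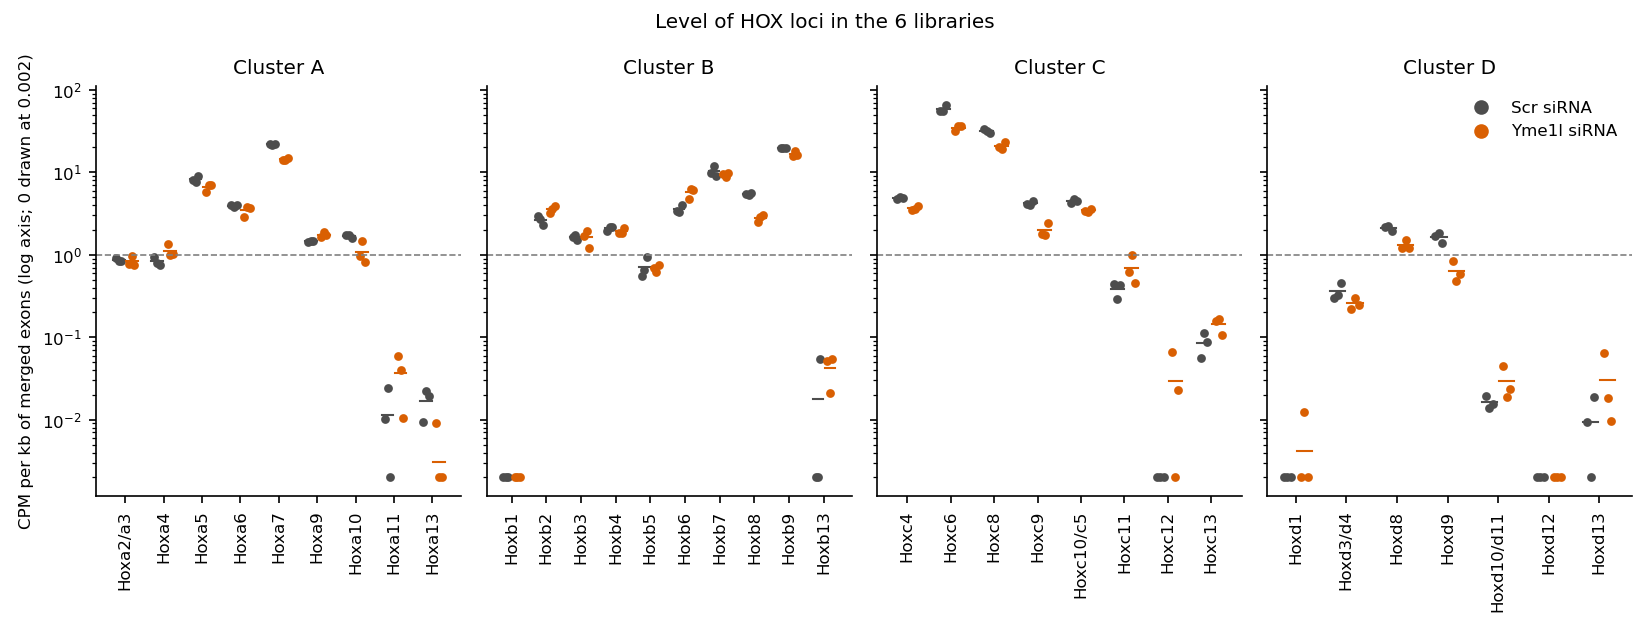
Level of 34 HOX loci in CPM per kb of merged exons (log axis, dashed line at 1), with 1 point per library, a short bar for the mean and 1 panel per cluster; a value of 0 is drawn at the bottom. *Hoxc6* and *Hoxc8* stand highest in both groups, and the loci of groups 11 to 13 lie below 1 in all 6 libraries.

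The loci that could not be tested were close to the limit of detection, which for 3 counts lay between 0.0676 and 0.0831 CPM, and they lie at the 3′ or the 5′ ends of the clusters. *Hoxb1* and *Hoxd12* had 0 counts in all 6 libraries, and *Hoxc12* and *Hoxd1* had 0 counts in the 3 Scr libraries. *Hoxa13*, which patterns the tips of the limbs, had 1, 2 and 2 counts in Scr and 1, 0 and 0 in Yme1l siRNA libraries. *Hoxd13* had 1, 0 and 2 counts in Scr and 7, 2 and 1 after Yme1l siRNA. *Hoxa11* had 1, 2 and 0 counts against 6, 4 and 1, and *Hoxb13* had 0, 0 and 5 against 5, 2 and 5. The joined locus of *Hoxd10* and *Hoxd11* had between 3 and 12 counts in every library. These 9 loci were too low to be tested. A 0 in this table need not mean that a gene is silent, since *Men1*, which cells in general use, is also listed with 0 counts in all 6 libraries.

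After Yme1l siRNA, HOX RNA was lower in sum and the pattern of loci that were on was largely kept. The summed level of all 35 loci was 192, 192 and 200 CPM per kb in Scr and 133, 143 and 147 CPM per kb in Yme1l siRNA libraries, without overlap. The mean after Yme1l siRNA was 72.3% of that in Scr. An exact two-sided permutation test of 3 against 3 libraries cannot give less than p = 0.1, which is its value here. The lack of overlap fixes that value, so the test adds nothing and the sum is a description. The locus state was the same in both groups for 30 of 35 loci, and 17 were on in both. *Hoxa10* and *Hoxd9* were on in Scr and low after Yme1l siRNA, while *Hoxa11* and *Hoxd13* passed from not detected to low at a few counts.

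Of the 26 loci tested, 12 were lower, 3 were higher and 11 were not called at an adjusted p under 0.05 from edgeR's quasi-likelihood test. The 15 called loci are 57.7% of those tested, and the same test called 58.0% of all 14499 tested loci, so the share of HOX loci called was near the background. The split by direction was 46.2% lower and 11.5% higher, against 29.6% lower and 28.4% higher over all loci. Scr and Yme1l siRNA libraries were fully separated at 19 HOX loci (73.1%), against 65.4% of all tested loci. The median log2 fold change of the 26 loci was -0.22, and it was 0.0086 over all loci. A change of 2-fold in either direction was reached by 3 loci, with *Hoxc9* and *Hoxd9* among them. Of the 10 loci with the highest Scr level 9 were lower, but that ranking used the Scr libraries of the same comparison, so this is a description.

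**Figure D2:**
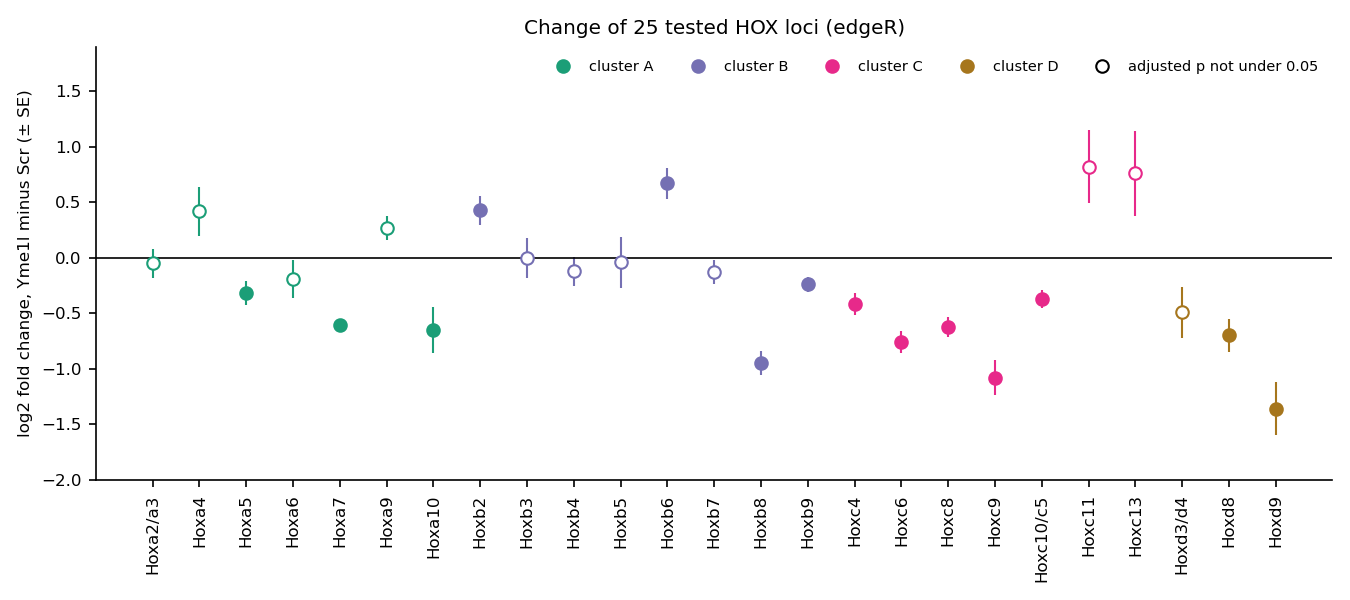
Log2 fold change of 25 tested HOX loci after Yme1l siRNA, with standard errors from edgeR, ordered by cluster and number and coloured by cluster; filled points had an adjusted p under 0.05. Values run from -1.36 for *Hoxd9* to 0.82 for *Hoxc11*, and the filled points of *Hoxb2* and *Hoxb6* lie above 0.

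In cluster C, 5 of 7 tested loci fell (71.4%) and none rose, against 29.6% and 28.4% of all tested loci. *Hoxc6* went from 132, 135 and 159 CPM in Scr to 76.9, 86.8 and 88.7 CPM in Yme1l siRNA libraries (log2 fold change -0.76, SE 0.10; edgeR adjusted p = 0.000245). All 3 Yme1l siRNA libraries were below all 3 Scr libraries, and *Hoxc6* was still the most abundant HOX gene. *Hoxc8* went from 96.1, 90.7 and 84.7 CPM to 57.0, 54.8 and 65.2 CPM (log2 fold change -0.62, SE 0.09; edgeR adjusted p = 0.00043), again without overlap. *Hoxc9*, the most affected member of the cluster, went from 10.1, 9.84 and 10.8 CPM to 4.31, 4.26 and 5.98 CPM, which left 47.4% of the Scr level (adjusted p = 0.000491 from edgeR). *Hoxc4*, which lies at the 3′ end of the cluster, had 12.2, 12.9 and 12.7 CPM in Scr and 9, 9.32 and 9.99 CPM after Yme1l siRNA (log2 fold change -0.42, adjusted p = 0.00554 from edgeR). The locus that joins *Hoxc10* and *Hoxc5* had 20.4, 23.1 and 21.6 CPM against 16.6, 16.2 and 17.5 CPM (log2 fold change -0.37, adjusted p = 0.00489 from edgeR), and its 2 genes cannot be told apart. Its exons lie on both sides of *Hoxc9*, *Hoxc8* and *Hoxc6*.

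At the 5′ end of cluster C the values pointed the other way, but they were not called. *Hoxc11* had 39, 21 and 37 counts in Scr and 56, 87 and 39 counts in Yme1l siRNA libraries (log2 fold change 0.82, SE 0.33; edgeR adjusted p = 0.0609). Without Yme1l siRNA replicate 3 its log2 fold change was 1.04 with an adjusted p of 0.018 from edgeR, and without Yme1l siRNA replicate 2 it was 0.48 with an adjusted p of 0.219. *Hoxc13* had 6, 10 and 9 counts against 17, 18 and 11 (log2 fold change 0.76, adjusted p = 0.12 from edgeR).

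In cluster D, 2 of 3 tested loci fell (66.7%), against 29.6% of all tested loci. *Hoxd9* had the most negative change among the HOX loci, from 3.56, 3.88 and 2.99 CPM in Scr to 1.78, 1.01 and 1.26 CPM after Yme1l siRNA (log2 fold change -1.36, SE 0.24; edgeR adjusted p = 0.00141). This left 39.0% of the level. *Hoxd8* went from 5.91, 6.18 and 5.33 CPM to 3.31, 4.12 and 3.32 CPM (log2 fold change -0.70, SE 0.15; edgeR adjusted p = 0.00411). Both genes separated the groups without overlap. The joined locus of *Hoxd3* and *Hoxd4* had 90, 81 and 132 counts against 67, 91 and 72, and these groups overlapped (adjusted p = 0.0947 from edgeR).

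In cluster A, 3 of 8 tested loci fell (37.5%), against 29.6% of all tested loci. The 3 loci were *Hoxa7*, *Hoxa5* and *Hoxa10*. *Hoxa7* went from 63.6, 61.5 and 63.4 CPM in Scr to 40.2, 40.6 and 42.8 CPM (log2 fold change -0.61, SE 0.06; edgeR adjusted p = 7.58e-05), the tightest change among the HOX loci. *Hoxaas3*, an antisense RNA, covers 20.4% of the merged exons of *Hoxa7*, and *Hoxaas3* itself was at 0.562 ± 0.122 CPM in Scr and 0.492 ± 0.132 CPM in Yme1l siRNA cultures (SD, n = 3 each). *Hoxa5*, a regulator of lung and rib development, had 15.1, 14.2 and 16.9 CPM against 10.9, 13 and 13.1 CPM (log2 fold change -0.32, adjusted p = 0.0378 from edgeR). The call of *Hoxa5* was lost without Scr replicate 1, Scr replicate 3 or Yme1l siRNA replicate 1, with adjusted p-values from edgeR of 0.0728, 0.107 and 0.147. *Hoxa10* had 5.64, 5.74 and 5.26 CPM against 3.18, 4.74 and 2.71 CPM (log2 fold change -0.65, adjusted p = 0.0271 from edgeR). Its call was lost without Scr replicate 1 or 2 or Yme1l siRNA replicate 1 or 3, with an adjusted p of up to 0.0908 from edgeR.

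Whether reads were assigned by strand is not stated, so reads of a gene and its antisense partner cannot be told apart. *Hoxa9*, a gene best known from blood progenitors and leukaemia, had 7.90, 8.20 and 8.18 CPM in Scr and 9.11, 10.5 and 9.59 CPM after Yme1l siRNA (log2 fold change 0.27, adjusted p = 0.0576 from edgeR), and these values did not overlap. *Hoxa9* passed the threshold under a stricter filter, with a mean count of 50 or more (log2 fold change 0.30, adjusted p = 0.0362 from edgeR). The log2 fold changes of *Hoxa4*, *Hoxa6* and the joined locus of *Hoxa2* and *Hoxa3* were 0.42, -0.19 and -0.05, and none of these was called. When each library was left out, they ranged from 0.26 to 0.51, from -0.25 to -0.08 and from -0.16 to 0.00. The values of *Hoxa4* and *Hoxa6* nearest to 0, 0.26 and -0.08, were those without Yme1l siRNA replicate 1.

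Cluster B was mixed, with 2 loci higher (25.0%), 2 lower (25.0%) and 4 not called. Over all tested loci 28.4% were higher and 29.6% lower. *Hoxb6* rose from 6.72, 6.57 and 7.84 CPM in Scr to 9.38, 12.2 and 12.0 CPM (log2 fold change 0.67, SE 0.14; edgeR adjusted p = 0.00348). All Yme1l siRNA libraries were above all Scr libraries. *Hoxb8*, which lies on the other side of *Hoxb7* in the same cluster, fell from 14.4, 13.8 and 14.7 CPM to 6.61, 7.57 and 8.04 CPM (log2 fold change -0.95, SE 0.11; edgeR adjusted p = 0.000144). *Hoxb7*, between them, had 15.3, 18.2 and 14.0 CPM against 14.7, 13.6 and 15 CPM and was not called (log2 fold change -0.13, adjusted p = 0.345 from edgeR). Called loci on either side of *Hoxb7* thus changed in opposite directions.

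*Hoxb2*, a hindbrain gene, had 10.4, 9.34 and 8.01 CPM in Scr and 11.3, 12.6 and 13.5 CPM after Yme1l siRNA (log2 fold change 0.43, adjusted p = 0.0179 from edgeR). Without Scr replicate 2 or 3 its adjusted p was 0.051 and 0.0515 from edgeR. *Hoxb3os*, an antisense RNA, covers 27.3% of the exons of *Hoxb2* and 52.9% of those of *Hoxb3*, and was at 1.67 ± 0.312 CPM in Scr and 1.88 ± 0.105 CPM in Yme1l siRNA cultures (SD, n = 3 each). *Hoxb9* had 51.0, 50.6 and 50.1 CPM against 40.7, 46.3 and 41.7 CPM (log2 fold change -0.24, SE 0.07; edgeR adjusted p = 0.0173), the smallest of the called changes. Its edgeR adjusted p was 0.0558 when Scr replicate 1 was left out and 0.09 when Yme1l siRNA replicate 1 was left out. *Hoxb3*, *Hoxb4* and *Hoxb5* had overlapping groups and were not called, and *Hoxb3* was at 6.91 ± 0.476 CPM in Scr and 6.90 ± 1.59 CPM in Yme1l siRNA cultures (SD, n = 3 each).

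Because the loci changed to different degrees, the balance between clusters shifted. Cluster C held 53.3%, 53.3% and 55.3% of the summed HOX level (CPM per kb) in the Scr libraries and 46.4%, 45.7% and 48.1% after Yme1l siRNA. Cluster B held 23.8%, 24.6% and 22.6% in Scr and 30.2%, 30.8% and 29.4% after Yme1l siRNA. For cluster A the shares were 20.3% ± 0.485 and 21.6% ± 0.41, and for cluster D they were 2.12% ± 0.191 and 1.61% ± 0.183 (SD, n = 3 each). For each cluster the libraries of the groups did not overlap, although for clusters A and D the gap was narrow. Cluster C stayed the one with the highest share in every library. Groups 9 to 13 held 17.3% ± 0.488 of the summed level in Scr and 18.9% ± 0.976 after Yme1l siRNA (SD, n = 3 each). These are shares of a sum that was itself lower after Yme1l siRNA, so a higher share need not mean a higher level. Of the 6 tested loci of groups 9 and 10, 5 were lower (83.3%), 0 were higher and 1 was not called. Over all tested loci 29.6% were lower and 28.4% higher.

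**Figure D3:**
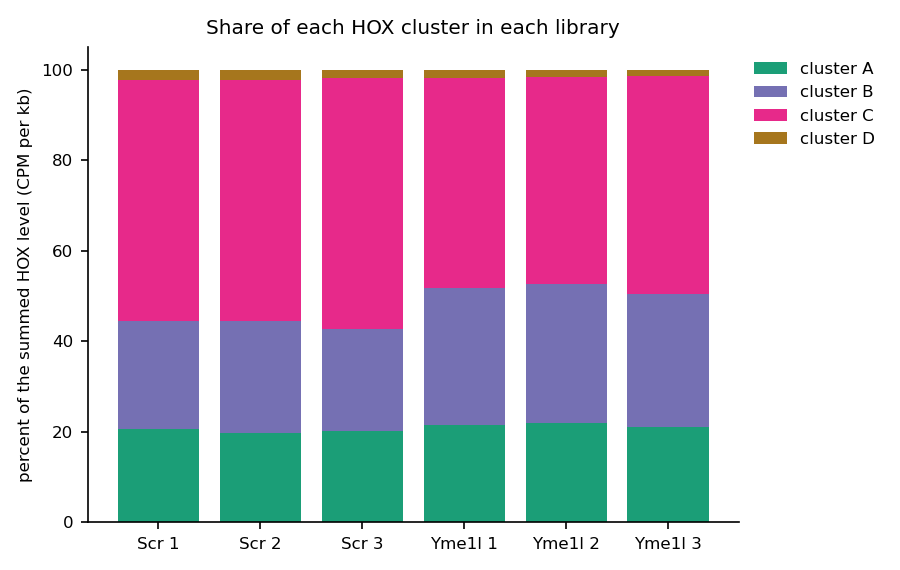
Percent of the summed HOX level (CPM per kb of merged exons) held by clusters A to D in each of the 6 libraries, as stacked bars. Cluster C holds between 53.3% and 55.3% in the Scr libraries and between 45.7% and 48.1% in the Yme1l siRNA libraries.

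The order of the levels was also largely kept. Spearman's rho between the mean levels of the groups across the 35 loci was 0.964, a description in which the points share libraries and include loci near zero. Between single libraries it lay between 0.952 and 0.967 for the 9 pairs across groups. Within the Scr group it was between 0.986 and 0.997, and within the Yme1l siRNA group between 0.98 and 0.992. The 4 highest loci were the same in both groups, as were 8 of the 10 highest. On the scale of CPM per kb *Hoxa7* and *Hoxb9* changed places. After Yme1l siRNA *Hoxa7* had 14.0, 14.1 and 14.9 CPM per kb and *Hoxb9* had 15.8, 18.0 and 16.2. The authors' pooled FPKM kept *Hoxa7* above *Hoxb9*, with 35.0 and 21.1 in Scr and 22.3 and 17.7 after Yme1l siRNA. Among the loci on in Scr, 8 moved by 3 ranks or more and the furthest moved by 7. *Hoxb6* passed from rank 12 to rank 7, *Hoxb8* from rank 7 to rank 12, and *Hoxd9* from rank 17 to rank 24.

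Ratios between paralogs of the same number, taken within each library on the scale of CPM per kb, do not depend on library size. Of 17 pairs of singly named, tested paralogs, 12 (70.6%) had ratios that did not overlap between the groups. Pairs share genes, and single loci already separated the groups at 65.4% of all tested loci, so nothing is read from this share. The exact two-sided permutation test gave p = 0.1 for the 12 pairs, the smallest that 3 against 3 libraries allow, and 0.142 after adjustment over the 17 pairs. The log2 ratio of *Hoxb6* to *Hoxc6* was -4, -4.07 and -4.05 in Scr and -2.74, -2.54 and -2.59 in Yme1l siRNA libraries, so the distance between these paralogs narrowed by 1.42 on the log2 scale. The log2 ratio of *Hoxa9* to *Hoxd9* was -0.23, -0.31 and 0.07 in Scr and 0.97, 1.99 and 1.54 after Yme1l siRNA. On this scale the paralogs were at similar levels in Scr, and after Yme1l siRNA *Hoxa9* was the higher one in all 3 libraries. Their order in Scr depends on the length used, with merged exons of 5.58 kb for *Hoxa9* and 2.136 kb for *Hoxd9*. The authors' pooled FPKM in Scr was 5.05 for *Hoxa9* and 1.72 for *Hoxd9*, so *Hoxa9* was already the higher one by that measure. The log2 ratio of *Hoxa9* to *Hoxc9* was -1.55, -1.46 and -1.6 in Scr and -0.12, 0.11 and -0.52 after Yme1l siRNA. The authors' pooled FPKM of *Hoxc9* in Scr was 4.52, below the 5.05 of *Hoxa9*, so this order too depends on the length used. In group 8, the log2 ratio of *Hoxc8* to *Hoxd8* was 3.92 ± 0.08 in Scr and 4 ± 0.28 in Yme1l siRNA cultures (SD, n = 3 each; exact permutation test, p = 0.7), and its values overlapped.

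**Figure D4:**
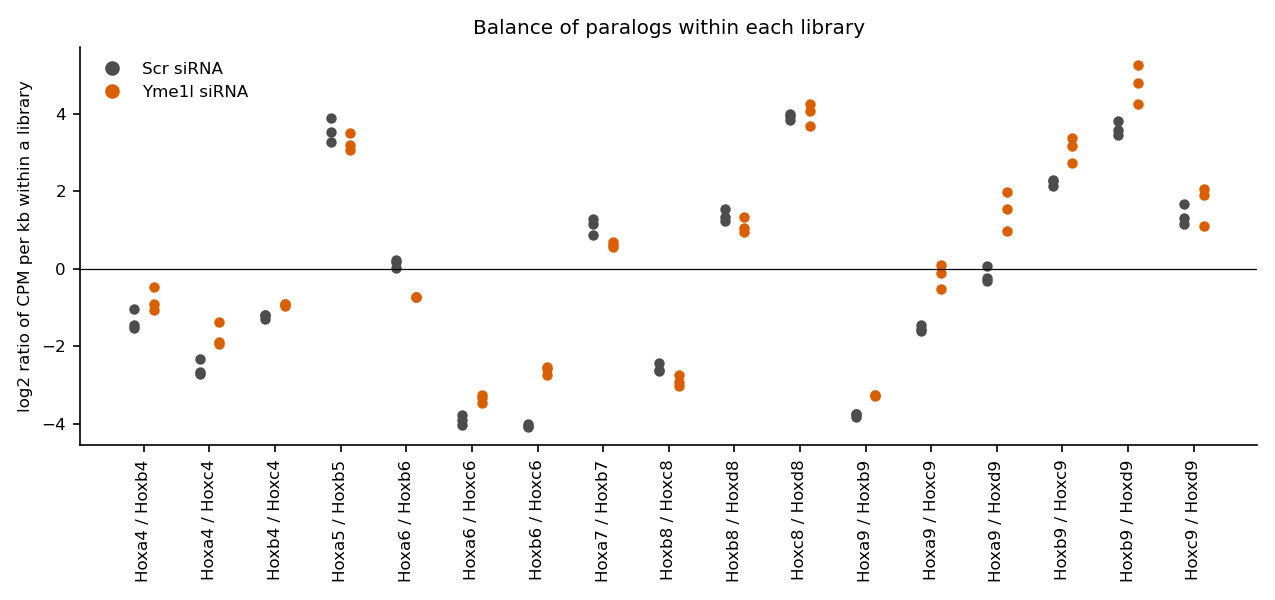
Log2 ratio of the CPM per kb of HOX paralogs within each library, for 17 pairs, with 1 point per library. The *Hoxb6* to *Hoxc6* ratio lies between -4.07 and -4 in Scr and between -2.74 and -2.54 in Yme1l siRNA libraries.

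HOX proteins bind DNA together with PBX proteins at sites that contain TGATNNAT. In RefSeq promoters of GRCm38.p6, from 250 bases before to 50 bases after the start, these letters were searched on both strands. Promoters were at hand for 22 of the HOX genes, as 24 sequences, and 4 of these genes held a match. Of all 32851 promoters 8.8% did, which is a share per promoter and not per gene. Promoters of several called loci, among them *Hoxc6*, *Hoxc8*, *Hoxc9*, *Hoxb2*, *Hoxb6* and *Hoxb9*, were not at hand. Among the promoters at hand, the sole match at a called locus was that of *Hoxb8*, the locus of cluster B that fell most. The *Hoxb8* promoter is therefore shown, at chr11:96281655-96281954 on the plus strand, with the match in capitals.
Hoxb8 promoter: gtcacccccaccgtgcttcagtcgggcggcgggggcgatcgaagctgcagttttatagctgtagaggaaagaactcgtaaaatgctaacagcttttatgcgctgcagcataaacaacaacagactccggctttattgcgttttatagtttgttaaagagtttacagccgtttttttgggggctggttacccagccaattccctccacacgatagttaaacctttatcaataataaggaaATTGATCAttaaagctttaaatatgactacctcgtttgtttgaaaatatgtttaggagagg
The match is a description of these letters and not a site.

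Of the genes that lie in or beside the HOX clusters, 10 of 31 listed names were tested, 3 were lower, against 29.6% of all tested loci, and none was higher, against 28.4%. *Halr1*, a non-coding RNA next to cluster A, went from 0.522 ± 0.165 CPM in Scr to 0.0993 ± 0.0806 CPM after Yme1l siRNA (SD, n = 3 each; log2 fold change -2.35, adjusted p = 0.00627 from edgeR). *Halr1* had 27, 22 and 14 counts in Scr and 4, 8 and 1 after Yme1l siRNA. It thus passed the count filter only through the Scr libraries, and the size of its change rests on few counts. *Skap2*, which lies beyond *Halr1*, fell from 73.7 ± 2.91 to 47.8 ± 1.25 CPM (SD, n = 3 each; adjusted p = 8.17e-05 from edgeR). *Calcoco1*, which lies on the side of *Hoxc13*, fell from 134 ± 1.08 to 49.1 ± 1.36 CPM (SD, n = 3 each; log2 fold change -1.45, adjusted p = 3.6e-06 from edgeR). *Smug1*, *Mtx2* and *Lnpk*, which flank clusters C and D, had log2 fold changes of 0.13, -0.02 and 0.11 and were not called. *Hottip*, *Evx1* and *Evx2* had 0 counts in all 6 libraries.

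TALE proteins of the PBX, MEIS and PREP families are partners with which HOX proteins bind DNA. All 9 listed genes were tested, 5 were lower (55.6%) and 2 were higher (22.2%), against 29.6% and 28.4% over all tested loci, with a median log2 fold change of -0.28. *Meis1* fell from 19.6 ± 1.42 to 9.59 ± 1.97 CPM (SD, n = 3 each; log2 fold change -1.03, adjusted p = 0.000451 from edgeR), and *Pknox1*, which encodes PREP1, had a log2 fold change of -0.53. *Pbx3* and *Meis2* rose by 0.32 and 0.25 on the log2 scale, so members of the same family differed in direction.

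Polycomb genes, whose products hold HOX genes silent, were mixed, with 8 higher, 7 lower and 14 not called of 29, and a median log2 fold change of -0.03. The shares called, 27.6% higher and 24.1% lower, lay near the 28.4% and 29.6% over all tested loci. *Jarid2*, a factor that recruits the PRC2 complex, fell from 35.0 ± 3.84 to 9.85 ± 1.3 CPM (SD, n = 3 each; log2 fold change -1.83, adjusted p = 1.34e-05 from edgeR). *Phf19* and *Pcgf5*, subunits of PRC2 and PRC1 variants, rose by 1.72 and 1.27 on the log2 scale. Of the core of PRC2, *Eed* and *Suz12* rose by 0.70 and 0.68, while *Ezh2* was not called (log2 fold change -0.26, adjusted p = 0.152 from edgeR).

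Trithorax products keep HOX genes active. The list of trithorax and demethylase genes also held other chromatin genes, such as *Ctcf* and *Rad21*, for which that role is not implied. Of this list 10 of 18 tested were higher (55.6%) and 1 was lower (5.56%), against 28.4% and 29.6% over all tested loci. The other 7 were not called, and the median log2 fold change of the list was 0.37. *Rad21* was among those higher (log2 fold change 0.51), and *Ctcf* was not called (log2 fold change 0.23). *Wdr5* rose from 87.0 ± 3.74 to 137 ± 2.05 CPM (SD, n = 3 each; adjusted p = 7.57e-05 from edgeR), and *Dpy30* and *Ash1l* rose by 0.69 and 0.55 on the log2 scale. *Kmt2a*, the MLL gene, was not called (log2 fold change 0.13), and *Kmt2c* fell by 0.57. A link between this list and the HOX loci was not tested.

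Retinoic acid and CDX proteins set HOX expression in the embryo. Of 15 tested genes on this list, 3 were higher and 4 were lower (26.7%), against 28.4% and 29.6% over all tested loci. *Rdh10*, which makes the retinoic acid precursor retinal, rose from 12.0 ± 0.244 to 33.7 ± 1.3 CPM (SD, n = 3 each; log2 fold change 1.49, adjusted p = 5.81e-06 from edgeR). *Cyp26b1*, which degrades retinoic acid, rose by 1.17 on the log2 scale, and the receptor *Rarg* fell by 0.56. *Aldh1a2*, *Cdx2* and *Cdx4* had 0 counts in all 6 libraries.

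Other genes that mark body position gave a further view of the cells. Of the limb and trunk list 14 of 28 genes were tested, 9 were lower (64.3%) and none was higher, against 29.6% and 28.4% over all tested loci, with a median log2 fold change of -0.42. *Prrx2* fell from 25.5 ± 6.87 to 8.58 ± 0.308 CPM (SD, n = 3 each; log2 fold change -1.57, adjusted p = 0.000181 from edgeR), and *Tbx15* and *Prrx1* fell by 0.51 and 0.56 on the log2 scale. *Tbx5* and *Tbx4*, which define forelimb and hindlimb, had at most 2 counts per library, and *Pitx1* had 0. Of the cranial and visceral list 16 of 29 were tested, 2 were higher (12.5%) and 3 were lower (18.8%), against the same background, with a median of 0.00. *Dlx4* and *Lhx2* rose by 1.24 and 1.5 on the log2 scale. *Lhx2* was low, at 0.586 ± 0.0283 CPM in Scr and 1.66 ± 0.0784 CPM in Yme1l siRNA cultures (SD, n = 3 each).

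**Figure D5:**
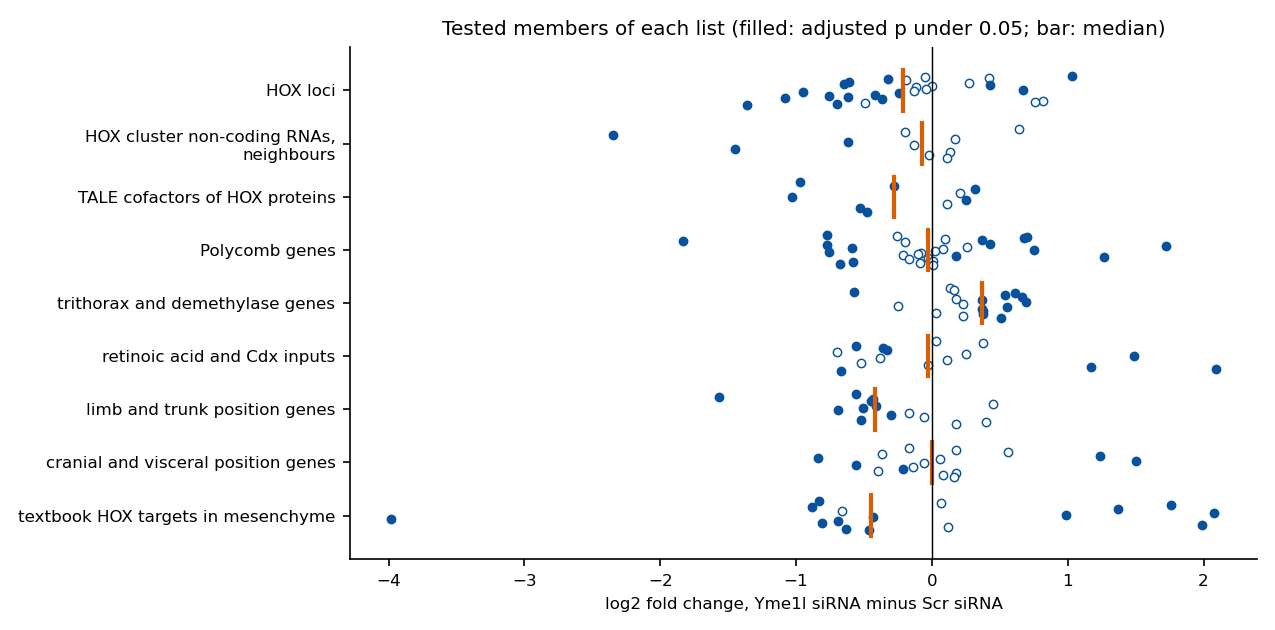
Log2 fold change after Yme1l siRNA of the tested members of the HOX set and of each list, with 1 point per gene, filled where the adjusted p from edgeR was under 0.05, and a bar at the median. The medians are -0.22 for the HOX loci, -0.28 for TALE genes, 0.37 for trithorax and demethylase genes and -0.42 for limb and trunk genes.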

How the data were processed

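Reads of 6 stranded, poly(A)-selected, paired-end libraries were mapped by the authors to mm10 with HISAT2 2.0.4 and assembled with StringTie 1.3.3, per the labels. They deposited raw counts per locus, without normalization; the counting program, its use of strand and its treatment of reads with several matches are not given in the sources used here. The FPKM values that the authors deposited come from Cuffdiff 2.2.1, with the 3 libraries of a group pooled. The other columns of that table hold the authors' fold changes and p-values and were not used. Sample titles gave the groups, and 0 columns were left unmapped.

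TMM factors and the quasi-likelihood test were computed with edgeR 4.0.16 (R 4.3.3), without covariates, over the 14499 loci kept by filterByExpr (at least 10 counts, 15 in total). Benjamini-Hochberg adjustment was made over all of them, with a threshold of 0.05. CPM per kb divide CPM by the merged exon length in GENCODE M21, found for 100% of HOX loci. No library repeated another within counting noise.

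The HOX genes and the lists were chosen with earlier results of these data known. The lists were HOX cluster non-coding RNAs and neighbours, TALE cofactors, Polycomb genes, trithorax and demethylase genes, retinoic acid and Cdx inputs, limb and trunk genes, cranial and visceral genes, textbook HOX targets, and cell type markers. Every HOX locus enters the counts, some items are not reported here, and each list is given by its counts and up to 3 called members with the smallest adjusted p, beside defining members. Further members of a direction with 5 or fewer calls, and single members of a complex, were named after their values were seen.

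Alternatives were DESeq2 1.42.0, limma-voom (limma 3.58.1), further scale factors and count filters, the replicate number as a block, a threshold of 0.01, other limits for a locus that is on, and leaving out each library. Pooled FPKM and the longest transcript length were added after seeing the data. In a test on simulated data edgeR and limma-voom met the limit first set for false calls and DESeq2 exceeded it; the limit was then loosened for the alternatives and kept for edgeR. The share of false calls was above the nominal 0.05 for all 3 tools, edgeR included. Python 3.11.15, pandas 2.3.3, numpy 2.4.6, scipy 1.17.1 and matplotlib 3.10.9 made the tables and figures.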

Additional observations from a re-analysis of the deposited data

How the results depend on the processing

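The counts of HOX loci stayed within 1.5 times of 3 higher and 12 lower under every alternative run, with 2 to 4 higher and 9 to 12 lower when each library was left out, and 2 higher and 9 lower at a threshold of 0.01. The median log2 fold change of the tested HOX loci lay between -0.27 and -0.17 when each library was left out. Of the 362 values of single HOX loci under alternatives, 334 kept their direction and their side of the threshold, 16 lost a call, 2 gained a call and 10 changed sign. The sign changes were all at loci that were not called, namely *Hoxb3* with 0.00 under median-ratio factors, 0.02 under upper-quartile factors, 0.03 with a mean of at least 50 counts and 0.01 with DESeq2, and, when each library was left out, *Hoxb3* with -0.15 to 0.16, *Hoxb5* with -0.21 to 0.20 and *Hoxa2* with *Hoxa3* with -0.16 to 0.00. *Hoxb9*, *Hoxb2*, *Hoxa5* and *Hoxa10* also lost their call at a threshold of 0.01, and *Hoxa5* with a mean of at least 50 counts (adjusted p = 0.0533 from edgeR). Limits of 0.5 and 2 CPM per kb left 22 and 13 loci on.

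Without division by length, the mean shares of the summed HOX level were 22.1% for cluster A after Yme1l siRNA, 22.0% and 28% for cluster B (Scr and Yme1l siRNA), 48.1% for cluster C after Yme1l siRNA, 2.35% and 1.91% for cluster D, and 19.9% and 22.2% for groups 9 to 13. With loci that join several HOX names left out, they were 31.1% for cluster B after Yme1l siRNA and 15.4% and 17% for groups 9 to 13. Long and joined loci weigh differently on these scales. For cluster C the means in Scr and after Yme1l siRNA were 55.0% and 48.1% without division by length, and 53.2% and 45.7% without joined loci. For cluster B they were 24.4% and 31.1% without joined loci. The share of cluster C was thus lower, and that of cluster B higher, after Yme1l siRNA on both scales.

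Whether the replicate numbers pair the samples was not settled. The deviations of same-numbered libraries correlated at 0.041, 0.116 and 0.192. Those of differently numbered libraries lay between -0.181 and 0.091. Scr replicate 1 correlated better with Yme1l siRNA replicate 2 (0.091) than with Yme1l siRNA replicate 1 (0.041). With the replicate block, 3 HOX loci were higher and 12 lower, as without it. Of all loci 4227 were higher and 4460 lower with the block, against 4123 and 4288 without it. Calls of the lists ranged over the alternatives from 2 to 4 lower for HOX cluster RNAs and neighbours, from 1 to 2 higher and 3 to 5 lower for TALE genes, from 7 to 9 in either direction for Polycomb genes, from 9 to 14 higher for trithorax and demethylase genes, from 2 to 4 higher and 4 to 6 lower for retinoic acid and Cdx inputs, from 6 to 10 lower for limb and trunk genes, from 1 to 3 lower for cranial and visceral genes, from 3 to 5 higher and 5 to 9 lower for textbook HOX targets, and from 1 to 2 higher and 9 to 10 lower for fibroblast markers. HOX cluster RNAs and neighbours and limb and trunk genes had at most 1 higher. Depth limits the loci of groups 11 to 13, where a few counts decide the value.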

Other observations

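Genes that textbooks name as HOX targets in mesenchyme were mixed. Of 16 tested, 5 were higher (31.2%) and 8 were lower, against 28.4% and 29.6% over all tested loci, with a median log2 fold change of -0.44. *Grem1*, a BMP antagonist of the limb bud, rose from 4.83 ± 2.24 CPM in Scr to 20.4 ± 1.32 CPM in Yme1l siRNA cultures (SD, n = 3 each; log2 fold change 2.08, adjusted p = 0.000569 from edgeR). *Bmp7*, a BMP ligand, rose by 1.37 on the log2 scale. *Itga8*, which encodes an integrin that HOX11 proteins regulate in the kidney, had 0.769 ± 0.0698 CPM in Scr and 0.0459 ± 0.0451 CPM in Yme1l siRNA cultures (SD, n = 3 each; log2 fold change -3.98, adjusted p = 0.000381 from edgeR). *Itga8* had 34, 25 and 35 counts in Scr and 4, 0 and 2 after Yme1l siRNA. It thus passed the count filter only through the Scr libraries, and the size of its change rests on few counts. *Fgf8*, *Shh* and *Igfbp1* had 0 counts in all 6 libraries. Whether these genes depend on HOX proteins in these cells was not tested.

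Of the other marker lists, the endothelial one had 2 of 3 tested genes higher (66.7%), against 28.4% of all tested loci. These were *Kdr* and *Tek*, with log2 fold changes of 2.57 and 0.61. The sum of the endothelial list lay between 3.79 and 4.08 CPM in Scr and between 5.68 and 7.85 CPM in Yme1l siRNA cultures. On the epithelial list the sole tested gene, *Krt8*, rose from 0.0248 ± 0.00251 to 0.6 ± 0.098 CPM (SD, n = 3 each). *Krt8* was below the limit of detection in Scr, so it passed the count filter only through the Yme1l siRNA libraries. On the blood list 1 of 2 tested genes was higher, which was *Csf1r*. On the neural list 1 of 4 was lower (25.0%, against 29.6% of all tested loci), which was *Sox2* with a log2 fold change of -1.60. On the muscle list 0 of 1 was called, with *Myod1*, *Myog* and *Myf5* at 0 counts, and on the pluripotent list none was tested, with *Pou5f1* and *Zfp42* at 0 counts.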
